A study of Mus musculus with 15 samples.

Results

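The genes described here are 10 members of the Notch pathway: the ligands Dll1, Dll3 and Jag1, the receptors Notch1, Notch2 and Notch3, the nuclear factor Rbpj, and the target genes Hes1, Hes5 and Hey1. They were found by the RefSeq transcript that the array files give for each probe, and they are 10 of the 32628 genes and transcripts named on the array. All 10 were among the 21667 that passed the filter on dim probes and were tested. They were read by 13 probes, and the brightest probe of each gene was used.

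Total RNA of 12 mouse medulloblastomas (tumours of the cerebellum) and 3 normal cerebella was hybridised in 1 colour, with 1 Agilent array per sample. The tumours, MB1 to MB12, grew in Ptch1+/- mice on a C3B6F1 background; Ptch1 encodes the inhibitory receptor of the Hedgehog pathway. The labels class each tumour as S-type or R-type and leave these letters unexplained, and irradiated mice had received X-rays on postnatal day 1. The design has 5 groups of 3 arrays. MB1 to MB3 were S-type from mice given no irradiation (0 Gy), aged 160 to 173, and MB4 to MB6 were S-type after 0.2 Gy, aged 128 to 135. MB7 to MB9 were R-type after 0.2 Gy, aged 106 to 127, and MB10 to MB12 were R-type after 1.5 Gy, aged 87 to 103. The normal cerebella came from mice with no irradiation, aged 103 to 113, whose genotype and strain the labels do not give. The labels give ages with no unit, and mice with tumours were killed when moribund. The 0.2 Gy dose is the one at which both types were sampled, and age cannot be told apart from type, since all S-type mice were older than all R-type mice. All mice were female except that of MB6. Separate animals are known only from the titles of the samples.

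Notch signalling passes between touching cells: a ligand of the Delta or Jagged family on one cell binds a Notch receptor on its neighbour, the receptor is cut, and its intracellular part moves to the nucleus. There it joins the DNA-binding protein RBPJ, and genes of the HES and HEY families, which encode repressors of the bHLH class, are switched on. In the developing cerebellum the pathway is known for keeping granule neuron precursors and glial progenitors undifferentiated, and HES proteins repress proneural genes such as Atoh1.

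Promoter sequences are shown for a target gene, for the nuclear factor and for the ligand with the largest difference, because RBPJ reads a short DNA core, which 2 of these windows hold and the other lacks. Each is the 250 bases before an annotated start in RefSeq, mouse build GRCm38.p6, written 5′ to 3′ along the gene. Capitals mark the RBPJ core TGGGAA, searched on both strands, so that TTCCCA is the same core on the opposite strand. The windows are chr4:154960673-154960922, plus strand, for Hes5; chr5:53590096-53590345, plus strand, for Rbpj; and chr7:28301786-28302035, minus strand, for Dll3.
Hes5: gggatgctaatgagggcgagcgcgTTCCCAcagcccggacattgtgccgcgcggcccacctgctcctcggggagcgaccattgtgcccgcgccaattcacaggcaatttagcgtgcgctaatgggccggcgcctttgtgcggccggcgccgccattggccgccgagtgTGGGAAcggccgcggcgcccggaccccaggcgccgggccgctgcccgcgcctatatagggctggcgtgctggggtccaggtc
Rbpj: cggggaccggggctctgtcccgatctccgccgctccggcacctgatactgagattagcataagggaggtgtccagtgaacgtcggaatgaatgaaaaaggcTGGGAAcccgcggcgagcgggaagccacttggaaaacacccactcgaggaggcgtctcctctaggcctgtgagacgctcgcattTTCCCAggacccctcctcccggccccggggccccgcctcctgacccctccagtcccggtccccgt
Dll3: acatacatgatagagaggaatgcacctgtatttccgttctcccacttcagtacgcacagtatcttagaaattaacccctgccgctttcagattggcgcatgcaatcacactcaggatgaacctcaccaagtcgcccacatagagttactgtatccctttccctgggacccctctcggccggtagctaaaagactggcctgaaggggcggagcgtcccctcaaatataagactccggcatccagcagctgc
The Hes5 window held 2 matches, 226 and 82 bases before the start and on opposite strands. The Rbpj window also held 2, 149 and 65 bases before its start, and the window of a second annotated Rbpj start overlaps it and shares the nearer match. The Dll3 window held 0 matches. Windows were found for 8 of the 10 genes, and the core was in none of those of Notch1, Notch2, Notch3, Dll1 and Jag1. Among 27025 promoters, with 1 per gene, 5817 (21.5%) held the core within the same length, so a match describes the letters and is not evidence of binding.

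A level below is the log2 of a probe's processed signal minus the 75th percentile of its array, so that 0 is the 75th percentile and 1 unit is a doubling. Levels of different genes rest on different probes and are not compared. The arrays had 59.1% to 66.48% of probes well above background, and all probes used were well above background on all 15 arrays, except that of Dll1, which was so on 14. Differences were tested with limma on all 21667 genes, with all 5 groups in the fit, and a gene was called when its Benjamini-Hochberg adjusted p was under 0.05. Since these are whole tissues, fewer cells of a type and less RNA per cell cannot be told apart.

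**Figure D1:**
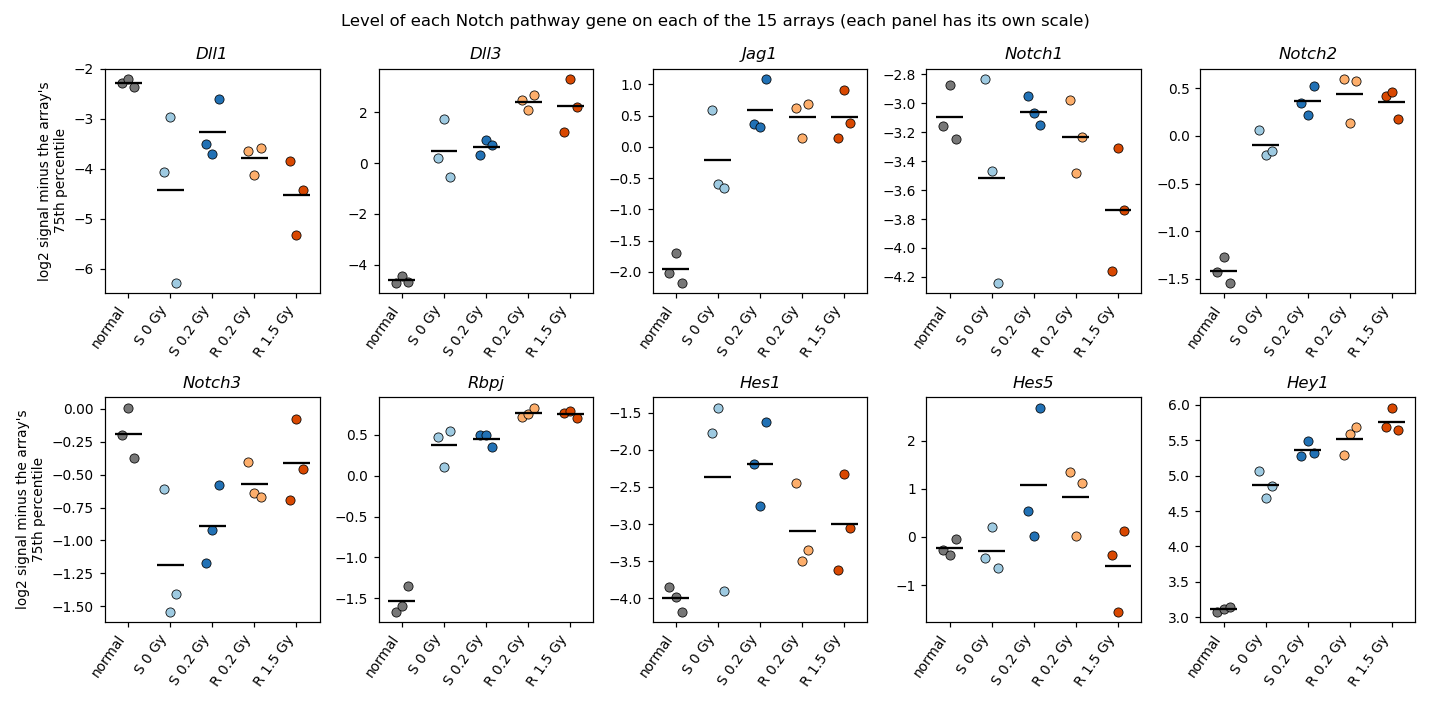
Level of each of the 10 genes (log2 signal minus the 75th percentile of the array, vertical axis, own scale per panel) in the 5 groups of 3 arrays; points are arrays and bars are group means. Dll3, Jag1, Notch2, Rbpj and Hey1 lay above all normal cerebella in all 12 tumours and Dll1 lay below them in all 12. Of all genes tested 78.9% were called in this comparison, and how many lay apart in this way was not counted.

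Between the 12 tumours and the 3 normal cerebella, Dll3 (66.7-fold), Jag1 (4.89-fold), Hey1 (4.81-fold), Rbpj (4.34-fold), Notch2 (3.20-fold) and Hes1 (2.52-fold) were higher in the tumours, and Dll1 (3.30-fold) and Notch3 (1.49-fold) were lower. Notch1 and Hes5 were not called. Thus 8 of 10 genes were called, 6 higher and 2 lower, while 78.9% of all genes tested were called in this comparison, 43.5% higher and 35.4% lower. The share of called members is therefore close to that of all genes. The median difference was 1.51 for the 10 genes and 0.14 for all genes tested. The comparison is one of tumour with whole cerebellum, and markers of neurons and glia differed as well, as given further on.

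Dll3 encodes a divergent ligand known for acting inside the cell that makes it rather than for activating receptors on neighbours. Its level was -4.71, -4.43 and -4.67 in the normal cerebella, 0.21, 1.76 and -0.53 in S-type tumours at 0 Gy, and 0.33, 0.92 and 0.71 in S-type tumours at 0.2 Gy. In R-type tumours it was 2.48, 2.11 and 2.70 at 0.2 Gy and 1.22, 3.33 and 2.23 at 1.5 Gy. The normal arrays stood far below all 12 tumours, and 5 of 6 R-type arrays stood above every S-type array. MB10, an R-type tumour, fell below MB2, an S-type tumour. The difference between tumours and normal cerebella was 6.06 (SE 0.44, adjusted p = 6.62e-08), the 184th highest of the 21667 genes. Under the other settings of processing that difference was 4.84 to 6.08, so the size of the fold depends on the processing. R-type tumours exceeded S-type tumours by 1.78 (SE 0.393, adjusted p = 0.0092), the 68th highest. Both R-type groups came before both S-type groups and the normal cerebella in the order of means; the ranges of R-type at 1.5 Gy (mean 2.26 ± 1.06, SD, n = 3) and of S-type at 0.2 Gy (0.65 ± 0.30, SD, n = 3) did not overlap, nor did those of S-type at 0 Gy and normal.

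Dll1 encodes a Delta ligand that activates Notch receptors on neighbouring cells. It read -2.29, -2.20 and -2.37 in the normal cerebella, -4.06, -2.96 and -6.28 in S-type tumours at 0 Gy, and -3.50, -3.71 and -2.61 in S-type tumours at 0.2 Gy. In R-type tumours it was -3.65, -4.13 and -3.59 at 0.2 Gy and -3.84, -5.32 and -4.42 at 1.5 Gy. The lowest value, in MB3, was from the 1 array on which the probe was not well above background. All 12 tumours lay below the normal cerebella (-1.72, SE 0.526, adjusted p = 0.00956). With another background correction (normexp on median signals) and quantile normalization that difference was smaller, -1.07 (adjusted p = 0.000862). Its probe is spotted 9 to 10 times per array, and the SD between spots had a median of 0.15 and a highest value of 0.5. The difference between the types was -0.30 (SE 0.47, adjusted p = 0.675), with a 95% interval of -1.33 to 0.72. Beyond the gap between normal cerebella and S-type at 0.2 Gy, the ranges of neighbouring groups overlapped.

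Jag1 encodes a Jagged ligand. Its level was -2.01, -1.70 and -2.17 in the normal cerebella, 0.59, -0.59 and -0.65 in S-type tumours at 0 Gy, and 0.37, 0.32 and 1.09 in S-type tumours at 0.2 Gy. R-type tumours had 0.62, 0.14 and 0.68 at 0.2 Gy and 0.15, 0.91 and 0.38 at 1.5 Gy. All tumours lay above all normal cerebella, and the tumour groups overlapped one another. The difference between tumours and normal cerebella was 2.29 (SE 0.267, adjusted p = 5.47e-06). R-type and S-type tumours differed by 0.29 (SE 0.239, adjusted p = 0.408), with an interval of -0.23 to 0.81. A second Jag1 probe was well above background on 0 arrays and was not used.

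Of the 3 receptors among the members, Notch2, known for acting in granule neuron precursors, was the one called higher in tumours. It read -1.43, -1.27 and -1.54 in the normal cerebella, 0.06, -0.20 and -0.16 in S-type tumours at 0 Gy, and 0.35, 0.22 and 0.52 in S-type tumours at 0.2 Gy. The R-type values were 0.60, 0.14 and 0.58 at 0.2 Gy and 0.42, 0.46 and 0.18 at 1.5 Gy. The normal cerebella were lowest, followed by S-type at 0 Gy, whose range lay apart from the next group in order, while the remaining 3 groups overlapped. The difference between tumours and normal cerebella was 1.68 (SE 0.112, adjusted p = 2.98e-08). R-type minus S-type was 0.27 (SE 0.1, adjusted p = 0.0788), with an interval of 0.05 to 0.49. Of the other Notch2 probes, 1 was well above background on 3 arrays and 1 on 0 arrays, and neither stood for the gene in the main fit. Tested with limma as a feature of its own, the former gave 1.44 (adjusted p = 2.45e-06) for tumours minus normal cerebella. For R-type minus S-type it gave 0.03 (adjusted p = 0.89).

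Notch3, the receptor known from pericytes and smooth muscle of vessels, read -0.20, 0.01 and -0.37 in the normal cerebella, -0.61, -1.54 and -1.41 in S-type tumours at 0 Gy, and -1.17, -0.92 and -0.58 in S-type tumours at 0.2 Gy. R-type tumours read -0.40, -0.64 and -0.67 at 0.2 Gy and -0.69, -0.08 and -0.46 at 1.5 Gy. The normal cerebella had the highest mean, the S-type groups the lowest, and every pair of neighbours in that order overlapped; MB11 alone among the tumours entered the range of the normal cerebella. The tumours were lower than the normal cerebella (-0.58, SE 0.192, adjusted p = 0.0155), but not without normal cerebellum 2 (adjusted p = 0.0824). R-type tumours exceeded S-type tumours by 0.55 (SE 0.172, adjusted p = 0.0421). That call ended when any of 12 of the 15 arrays was left out, with adjusted p from 0.00736 to 0.0965 over all 15, and under 4 of the other settings; within slides the difference was 0.10 to 1.05, above 0 on 4 of 4.

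Notch1, a receptor that is widely expressed in neural progenitors, read -3.16, -2.87 and -3.25 in the normal cerebella, -2.83, -3.47 and -4.24 in S-type tumours at 0 Gy, and -2.95, -3.07 and -3.15 in S-type tumours at 0.2 Gy. In R-type tumours it was -2.98, -3.48 and -3.23 at 0.2 Gy and -4.16, -3.31 and -3.74 at 1.5 Gy. Tumours and normal cerebella overlapped, as did every pair of neighbouring groups in the order of means. The 3 R-type arrays at 1.5 Gy, lowest in that order, lay below all normal cerebella (-0.64, SE 0.305). With limma that difference was not called (adjusted p = 0.0747), but it was called under 6 of 27 alternative settings. The difference was -0.29 (SE 0.241, adjusted p = 0.286; interval -0.82 to 0.24) between tumours and normal cerebella and -0.20 (SE 0.216, adjusted p = 0.542; interval -0.67 to 0.27) between R-type and S-type tumours.

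Rbpj, the nuclear factor through which the cut receptors act, was the member with the narrowest range in tumours. It read -1.66, -1.59 and -1.35 in the normal cerebella, 0.47, 0.11 and 0.54 in S-type tumours at 0 Gy, and 0.49, 0.50 and 0.35 in S-type tumours at 0.2 Gy. The R-type arrays gave 0.71, 0.75 and 0.83 at 0.2 Gy and 0.76, 0.79 and 0.70 at 1.5 Gy. All 6 R-type arrays lay above all 6 S-type arrays, and all S-type arrays above the 3 normal arrays. The difference between tumours and normal cerebella was 2.12 (SE 0.0916, adjusted p = 6.51e-10), and R-type exceeded S-type by 0.34 (SE 0.0819, adjusted p = 0.013). The second difference was 1.27-fold and was not called when arrays were left unscaled (0.12, adjusted p = 0.269). Within slides R-type minus S-type was 0.22 to 0.53, above 0 on 4 of 4.

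Hey1, a target that encodes a HEY repressor, had the highest precision of the targets. It read 3.08, 3.12 and 3.15 in the normal cerebella, 5.06, 4.69 and 4.86 in S-type tumours at 0 Gy, and 5.28, 5.49 and 5.32 in S-type tumours at 0.2 Gy. R-type tumours had 5.29, 5.59 and 5.68 at 0.2 Gy and 5.69, 5.96 and 5.64 at 1.5 Gy. The group means stood in that order from lowest to highest, with gaps between normal cerebella and S-type at 0 Gy and between the latter and S-type at 0.2 Gy; the upper 3 groups overlapped. The difference between tumours and normal cerebella was 2.27 (SE 0.101, adjusted p = 8.06e-10), and R-type exceeded S-type by 0.52 (SE 0.0899, adjusted p = 0.00249). Left unscaled, the latter was 0.30 (adjusted p = 0.0131).

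Hes1, a target that encodes a HES repressor, read -3.85, -3.98 and -4.18 in the normal cerebella, -1.77, -1.43 and -3.90 in S-type tumours at 0 Gy, and -2.19, -2.76 and -1.62 in S-type tumours at 0.2 Gy. The R-type values were -2.45, -3.50 and -3.35 at 0.2 Gy and -3.62, -2.32 and -3.06 at 1.5 Gy. MB3 alone among the tumours lay within the range of the normal cerebella, and the tumour groups overlapped. The tumours were higher by 1.34 (SE 0.456, adjusted p = 0.0175), a call that ended without normal cerebellum 3 (adjusted p = 0.0647). R-type minus S-type was -0.77 (SE 0.408, adjusted p = 0.198; interval -1.67 to 0.12); without MB3 it was -1.16 and called (adjusted p = 0.0158).

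Hes5, a HES repressor known from neural progenitors and glia, read -0.28, -0.37 and -0.04 in the normal cerebella, -0.44, 0.20 and -0.65 in S-type tumours at 0 Gy, and 0.54, 0.03 and 2.69 in S-type tumours at 0.2 Gy. R-type tumours read 1.36, 0.02 and 1.13 at 0.2 Gy and -0.37, -1.55 and 0.13 at 1.5 Gy. MB6, the 2.69, was the highest, MB11 the lowest, and tumours lay on both sides of the normal cerebella. The differences were 0.49 (SE 0.499, adjusted p = 0.385; interval -0.60 to 1.58) between tumours and normal cerebella and -0.27 (SE 0.446, adjusted p = 0.694; interval -1.25 to 0.70) between R-type and S-type tumours. Without MB6 they were 0.29 and 0.13. The ranges of R-type at 0.2 Gy and normal cerebella, neighbours in the order of means, did not overlap, with 0.02 against -0.04 at the gap. S-type at 0.2 Gy also lay above all normal cerebella. Limma called neither group against normal (adjusted p = 0.146 for R-type and 0.0776 for S-type).

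The spread over the 12 tumours differed widely between members. The ratio of the highest to the lowest tumour was 18.9-fold for Hes5, 14.6-fold for Dll3, 12.8-fold for Dll1 and 5.54-fold for Hes1. It was 3.34-fold for Jag1, 2.74-fold for Notch3, 2.66-fold for Notch1 and 2.41-fold for Hey1, and 1.74-fold for Notch2 and 1.65-fold for Rbpj. The first places rest on single tumours: the ratio was 7.49-fold for Hes5 without MB6, 8.73-fold for Dll3 without MB3, and 6.53-fold for Dll1 without MB3, where its probe was not well above background. By SD over the 12 tumours Dll3 (1.16) came before Hes5 (1.09) and Dll1 (0.99).

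**Figure D2:**
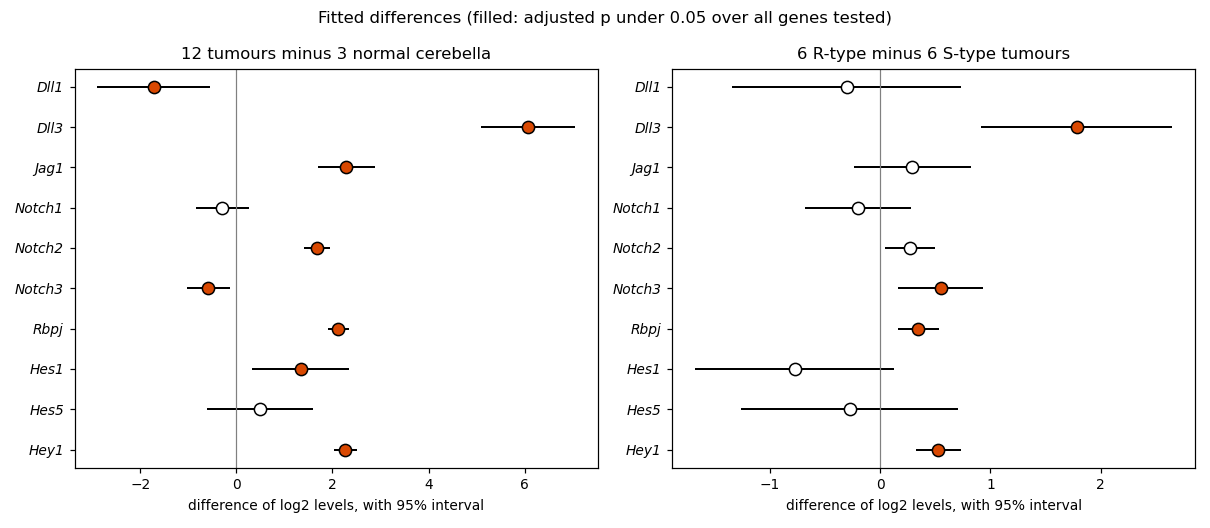
Fitted difference of log2 levels (horizontal axis) for each gene, left for 12 tumours minus 3 normal cerebella and right for 6 R-type minus 6 S-type tumours; lines are 95% intervals and filled points had an adjusted p under 0.05. On the left 6 genes are filled above 0 and 2 below, and on the right 4 are filled, all above 0. Of all genes tested 78.9% were called in the left comparison. In the right one 21.0% of all genes were called, and 10.9% were called higher.

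Each tumour group was also set against the normal cerebella, a control that the 4 comparisons share. In S-type tumours at 0 Gy 8 of 10 genes were called (74.2% of all genes), in S-type tumours at 0.2 Gy 7 (73.9%), in R-type tumours at 0.2 Gy 5 (74.1%) and in R-type tumours at 1.5 Gy 6 (74.6%). Dll3, Jag1, Notch2, Rbpj and Hey1 were higher in all 4 groups. Dll3 stood 5.08, 5.26, 7.03 and 6.86 above normal in these groups, in that order. Hey1 stood 1.76, 2.25, 2.40 and 2.65 above. Hes1 was called in the S-type groups (1.63, adjusted p = 0.0223, and 1.81, adjusted p = 0.0132), and the R-type values were 0.90 (adjusted p = 0.178) and 1.00 (adjusted p = 0.136). The first of these calls ended without MB1, MB2 or normal cerebellum 3 (adjusted p up to 0.0986) and the second without MB6 (0.0529). With only the groups compared in the fit, Hes1 was not called in S-type tumours at 0 Gy (adjusted p = 0.0666) and was called in both R-type groups (0.0324 at 0.2 Gy and 0.0346 at 1.5 Gy). The S-type and R-type values of Hes1 are therefore not shown to differ. Notch3 was likewise called lower in the S-type groups (-1.0, adjusted p = 0.0026, and -0.70, adjusted p = 0.0205), the latter lost without MB4 or normal cerebellum 2 (up to 0.0831), while R-type tumours had -0.38 (adjusted p = 0.177) and -0.22 (adjusted p = 0.418). With only the groups compared, Notch3 was called in R-type tumours at 0.2 Gy as well (adjusted p = 0.038). Dll1 was called at -2.15 (adjusted p = 0.0112) in S-type tumours at 0 Gy and at -2.24 (adjusted p = 0.00879) in R-type tumours at 1.5 Gy, with -0.99 (adjusted p = 0.197) in S-type and -1.51 (adjusted p = 0.0578) in R-type tumours at 0.2 Gy. Without MB3 the first of these was -1.22 (adjusted p = 0.0301). With only the groups compared it was not called (adjusted p = 0.0571), while both groups at 0.2 Gy were (0.0236 in S-type and 0.000286 in R-type).

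Between the tumour types, 4 of 10 genes were called, Dll3, Hey1, Notch3 and Rbpj, all higher in R-type. In this comparison 21.0% of all genes were called, and 10.9% were called higher. The median difference was 0.28 for the 10 genes and 0.02 for all genes. R-type tumours had received 0.2 or 1.5 Gy and S-type tumours 0 or 0.2 Gy, and the R-type mice were 87 to 127 and the S-type mice 128 to 173 at sampling, so dose and age cannot be told apart from type here. At 0.2 Gy alone, 3 tumours against 3, limma called 0 of 10 genes (4.77% of all genes), and 2 had an unadjusted p under 0.05. The Dll3 difference there was 1.78 (SE 0.556) and was not called (adjusted p = 0.0904), although all 3 R-type arrays lay above all 3 S-type arrays. Its adjusted p was 0.0289 with only the groups compared and up to 0.194 under the other settings, and 0.0365 to 0.254 with an array left out. Rbpj differed by 0.31 (SE 0.116, adjusted p = 0.139), also without overlap. Hey1 differed by 0.15 (SE 0.127, adjusted p = 0.512; interval -0.12 to 0.43) and Notch3 by 0.32 (SE 0.243, adjusted p = 0.471; interval -0.21 to 0.85).

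The dose comparisons within a type gave no calls among the 10 genes. For 0.2 Gy against 0 Gy in S-type tumours, limma called 0 of 10 (0.00462% of all genes), and 4 had an unadjusted p under 0.05, as had 5.75% of all genes. These were Notch2 (0.46, SE 0.141, adjusted p = 0.731), Hey1 (0.49, SE 0.127, adjusted p = 0.589), Jag1 (0.81, SE 0.338, adjusted p = 0.832) and Hes5 (1.39, SE 0.631, adjusted p = 0.864). For Notch2 and Hey1 the 3 arrays at 0.2 Gy lay above the 3 at 0 Gy, and without MB6 the Hes5 value was 0.59. The median over the 10 genes was 0.46, beside 0.00 for all genes. For 1.5 Gy against 0.2 Gy in R-type tumours, limma called 0 of 10 (0.0692% of all genes), and 1, Hes5, had an unadjusted p under 0.05 (-1.43, SE 0.631, adjusted p = 0.696). The ages differed between the dose groups of each type, so age and dose cannot be told apart in either comparison.

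The arrays lay on 4 slides, each of which held both tumour types, and 3 of which held a normal cerebellum. Within slides, tumours minus normal was 5.94 to 6.35 for Dll3, 2.16 to 2.35 for Hey1, 1.98 to 2.29 for Rbpj, 1.83 to 2.62 for Jag1 and 1.42 to 1.92 for Notch2; all were above 0 on each of the 3 slides. It was -3.05 to -0.85 for Dll1, -0.74 to -0.30 for Notch3 and 0.73 to 1.62 for Hes1. R-type minus S-type for Dll3 was 2.03 to 3.25 on slides 2, 3 and 4, and -0.02 on slide 1, where MB10 stood against MB2 and MB6. For Hey1 it was 0.19 to 0.91, above 0 on 4 of 4 slides.

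**Figure D3:**
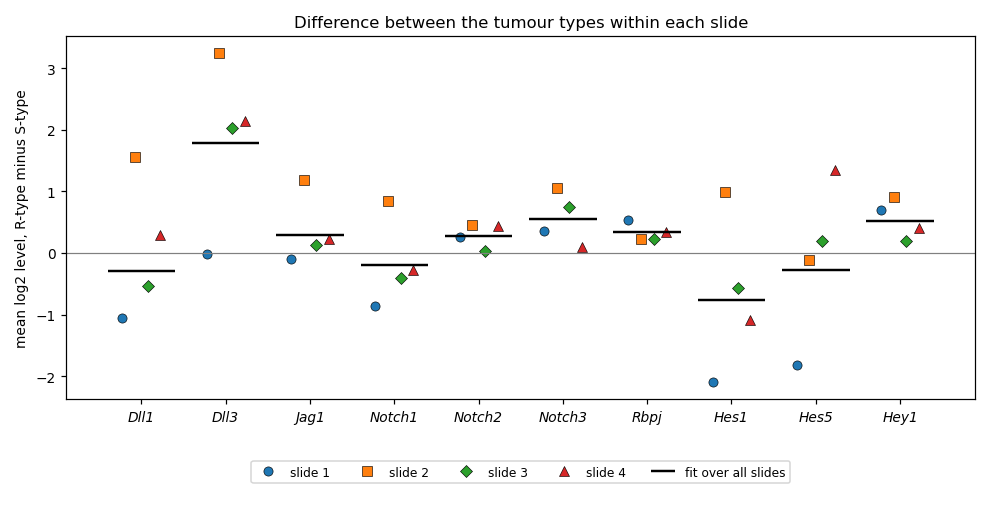
Mean log2 level in R-type minus S-type tumours within each of the 4 slides (symbols) for each gene, with the fit over all slides as a bar; each slide has 3 tumours. Notch2, Notch3, Rbpj and Hey1 lie above 0 on all 4 slides, Dll3 on 3, and Hes1 and Notch1 on 1.

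The normal cerebella and tumours were checked against markers of the cell types they could hold, as mean levels over each list. Markers of granule neuron precursors, the cells from which this tumour arises, were -1.10 to -1.06 in normal cerebella and 2.81 to 3.22 in tumours, with 7 of 10 called higher and 1 lower. Those of mature granule neurons (4.05 to 4.25 against -2.48 to 0.72) and Purkinje cells (5.01 to 5.14 against -2.88 to -0.76) were lower in tumours, 8 of 8 genes in each. Markers of astrocytes and Bergmann glia, cells known to express Notch receptors and Hes5, were 2.54 to 2.67 in normal cerebella and -0.62 to 1.21 in tumours, with 9 of 12 genes lower and 1 higher. MB6, the tumour highest in Hes5, had 0.74 for them, MB7 had 1.21 and MB9 had 0.49, and the other 9 tumours had at most 0.01. Markers of pericytes and smooth muscle, cells known for Notch3 and Jag1, were -1.11 to -0.81 in normal cerebella, -0.57 to 0.33 in S-type and -0.01 to 0.49 in R-type tumours. In tumours 6 of 9 were higher and 1 lower than in normal cerebella, and 2 of 9, Tagln and Myh11, were called higher in R-type. Markers of oligodendrocytes were 2.15 to 2.77 in normal cerebella and -2.39 to -1.17 in tumours, with 6 of 7 genes lower. Endothelial markers were -0.92 to -0.73 in normal cerebella, with 5 of 10 higher and 2 lower in tumours. They were -1.42 to -0.28 in S-type and -0.66 to -0.11 in R-type tumours, with 0 of 10 called between them by limma. Markers of microglia and macrophages were -0.98 to -0.56 in normal cerebella, with 7 of 8 higher and 1 lower in tumours. They were 1.00 to 1.47 in S-type and 0.54 to 1.26 in R-type tumours, with 2 of 8 called lower in R-type. Of the astrocyte and Bergmann glia markers, 2 of 12 were called higher in R-type than in S-type tumours and 0 lower. Granule neuron precursor markers had 2 of 10 higher and 2 lower in R-type, and mature granule neuron markers 1 of 8 higher and 1 lower. Purkinje cell markers had 1 of 8 lower, and oligodendrocyte markers 1 of 7 higher. Between the types 21.0% of all genes were called. The part of all these cell types in the differences of the 10 genes was not tested.

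Among the 12 tumours, 45 pairs of the 10 genes were correlated, with permutation p-values adjusted over the pairs. The permutations moved tumours across types and doses, so differences between the groups enter these p-values. Rbpj and Hey1 had r = 0.80 (permutation p = 0.00154, adjusted 0.0231) and rho = 0.80 (permutation p = 0.00259, adjusted 0.0583). Without the 2 tumours farthest in Rbpj, r was 0.75, and it was 0.52 within S-type and 0.55 within R-type tumours, 6 of each. Both genes were called between the types, and the values within types leave that difference out. Notch2 and Jag1 had r = 0.82 (permutation p = 0.00094, adjusted 0.0231) and rho = 0.76 (permutation p = 0.0054, adjusted 0.0608). Without MB2 and MB3 that r was 0.52, so it rests in part on them. The r of Notch2 and Jag1 was 0.90 within S-type and 0.64 within R-type tumours. Notch3 and Jag1 had r = 0.82 (permutation p = 0.00138, adjusted 0.0231) and rho = 0.76 (permutation p = 0.00529, adjusted 0.0608). Notch3 and Hey1 had r = 0.78 (permutation p = 0.00332, adjusted 0.0374) and rho = 0.53 (permutation p = 0.0814, adjusted 0.275). Without MB2 and MB3 these r were 0.49 and 0.45, so both rest in part on those tumours. Within S-type tumours these r were 0.93 and 0.66, and within R-type tumours 0.75 and 0.35. Rbpj, the nuclear factor, and Hes1, a target, went opposite ways with r = -0.69 (permutation p = 0.0119, adjusted 0.0785) and rho = -0.68 (permutation p = 0.0186, adjusted 0.156), and r was -0.41 without MB2 and MB6. Their r was -0.69 within S-type and -0.21 within R-type tumours. Dll1, a ligand, and Hes5, a target, had r = 0.73 (permutation p = 0.0102, adjusted 0.0785). Their rho was 0.83 (permutation p = 0.00125, adjusted 0.0563). Both of the last pairs thus missed the threshold after adjustment by r and by rho. By rho none of the 45 pairs passed it, and the pair of Dll1 and Hes5 came nearest. For Dll1 and Hes5 r was 0.69 without MB3 and MB11, 0.69 in S-type and 0.87 in R-type tumours. A slide holds only 3 tumours, too few for a correlation within it.

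**Figure D4:**
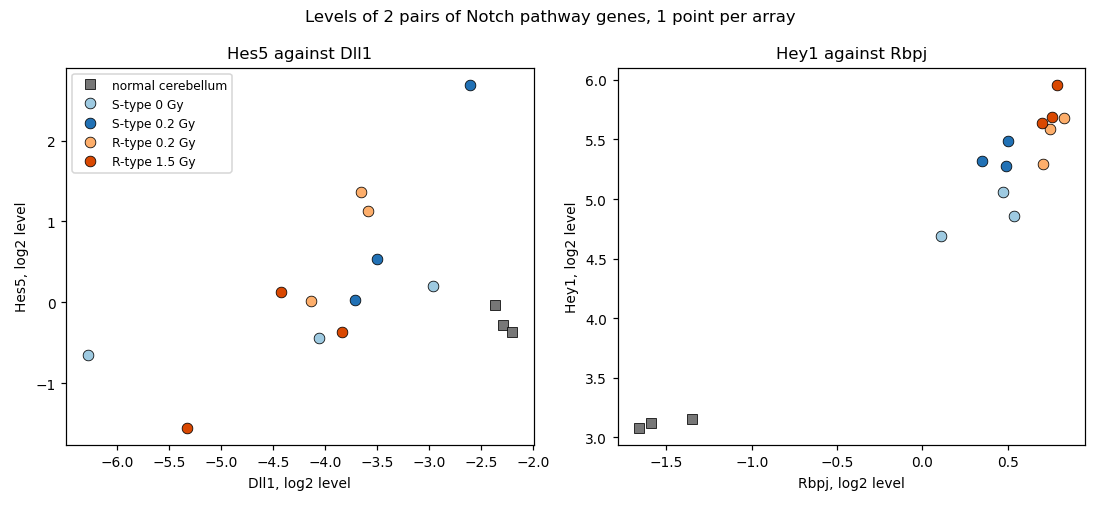
Log2 level of Hes5 against Dll1 (left) and of Hey1 against Rbpj (right), 1 point per array, coloured by group, normal cerebella as squares. Over the 12 tumours r was 0.73 on the left and 0.80 on the right; the normal cerebella are not part of either value.

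The genes whose levels most resembled each member over the 12 tumours were taken by Pearson's r among 11460 other genes (11461 for Dll1) well above background on all 12. They share the arrays and their scaling with the member, and differences between the tumour groups enter r. As the highest of so many candidates they have a high r by selection, and they are given as a description. With the group means taken out, r for the genes named below was 0.80 (Zfyve21 with Hey1) to 0.97 (Rlbp1 with Dll1 and Tpd52 with Notch3). For Dll3 they were Flnc (r = 0.97), Acer3 (0.97) and Creb5 (0.94), and for Hey1 they were Tst (0.97), Zfyve21 (0.97) and Kat2a (0.96), of which Kat2a encodes an acetyltransferase that acts as a coactivator. For Rbpj they were Maoa, Nop58 and Rrp15 (0.98 each). For Dll1 they were Rlbp1 (0.98), Vxn (0.96) and Cspg4 (0.96), and for Hes5 they were Asrgl1 (0.96), Luzp2 (0.91) and Cbr3 (0.91). Rlbp1 encodes a retinoid-binding protein, and Cspg4 encodes the NG2 proteoglycan of pericytes and oligodendrocyte precursors. For Jag1 the closest was Sox7 (0.95), a factor of endothelium, for Notch3 they were Zap70 and Tpd52 (0.94 each), for Notch2 it was Rrp7a (0.95), for Notch1 Frmd8 (0.91) and for Hes1 Cd74 (0.94), the invariant chain of antigen-presenting cells.

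Other genes of the pathway were taken from 8 lists with 79 genes, of which 71 were on the array and 68 were tested. Against normal cerebella 33 were called higher in tumours and 24 lower, with a median difference of 0.19. Of all genes tested 43.5% were called higher and 35.4% lower there, with a median of 0.14. Between the types 4 were higher in R-type and 5 lower, with a median of 0.03. In that comparison 21.0% of all genes were called, 10.9% of all genes higher, with a median of 0.02. The counts per list below stand beside these same shares. Itch, Hes7 and Ptf1a were too dim to be tested. Among other receptors and ligands, 3 of 5 were higher and 2 lower in tumours. Dner, a Notch-binding membrane protein of Purkinje cells, differed by -2.50 (SE 0.273, adjusted p = 2.96e-06), and the ligand Jag2 by -1.23 (adjusted p = 2.81e-05). Dlk1, which encodes a ligand without the domain that activates Notch, was not well above background in the normal cerebella and was at least 11.8-fold higher in tumours (adjusted p = 5.62e-06). For such genes the fold is a lower bound, taken against the dimmest signal well above background on each array.

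The fringe enzymes, which add sugars to Notch and alter its response to ligands, did not all differ in the same direction. With limma, Lfng was higher in tumours by 0.98 (adjusted p = 0.000114). Mfng was higher in tumours by 4.08 (SE 0.198, adjusted p = 1.81e-09) and Rfng lower (-1.29, adjusted p = 1.47e-09). Mfng was also the one of 7 genes for modification and endocytosis that was called between the types, lower in R-type (-1.17, SE 0.177, adjusted p = 0.00125). Mib2, a ubiquitin ligase of ligands, was lower in tumours (-1.40, adjusted p = 1.78e-08). Of 8 genes for receptor cleavage 3 were higher and 3 lower in tumours. Psen2, a catalytic subunit of gamma-secretase, was lower (-1.32, adjusted p = 5.4e-09), and of its partner subunits Aph1a was higher (0.84, adjusted p = 5.22e-07) while Aph1c was at least 6.58-fold lower. Aph1b (-1.35, adjusted p = 0.0358) and the protease Adam17 (-0.19, adjusted p = 0.0431) were lower in R-type than in S-type tumours.

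Of 7 coactivators of the RBPJ complex, 3 were higher and 2 lower in tumours, and 2 were higher in R-type. These 2 were Maml1, the Mastermind protein that binds the cut receptor (0.60 in tumours, adjusted p = 6.77e-06; 0.23 in R-type, adjusted p = 0.0275), and Kat2a (0.66, adjusted p = 3.91e-07; 0.19, adjusted p = 0.0216). Kat2b was lower in tumours (-1.81, adjusted p = 8.66e-10). Of 12 corepressors, 8 were higher and 1 lower in tumours. They include Tle1, a Groucho protein that HES factors recruit (2.92, adjusted p = 2.68e-11), and the deacetylase Hdac2 (2.02, adjusted p = 5.69e-11). Tle2 (-0.96, adjusted p = 0.000938) and Ncor1 (-0.14, adjusted p = 0.0433) were lower in R-type.

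Of 7 negative regulators, 3 were higher and 4 lower in tumours. Nrarp, a target that limits Notch activity, was higher by 2.97 (adjusted p = 2.29e-08), with 1 of 3 normal arrays well above background. Fbxw7, which marks the cut receptor for breakdown, was lower (-2.13, adjusted p = 6.6e-09), and Dtx2, a Deltex protein, was higher (0.80, adjusted p = 9.86e-08). Of 8 other HES and HEY relatives, 3 were higher and 4 lower in tumours. Hes3 was at least 21.3-fold lower, and Bhlhe40 (-2.42, adjusted p = 4.22e-08) and Bhlhe41 (-2.02, adjusted p = 2.28e-08), repressors known from the circadian clock, were lower as well. Bhlhe40 was higher in R-type than in S-type tumours (0.48, adjusted p = 0.0404), and Hes3 was also called (adjusted p = 0.046) but was not well above background in any tumour, so it has no fold. Of 14 proneural and related factors, 6 were higher and 5 lower in tumours. The list holds proneural genes and also Id1, Id2, Id3 and Id4, of which Id1 was called higher and Id4 lower. The tumours exceeded normal cerebella at least 494-fold in Atoh1, the factor that specifies precursors of granule neurons, at least 664-fold in Nhlh1 and by 2.80 on the log2 scale in Nhlh2 (adjusted p = 8.11e-10). Between the types 0 of these 14 were called by limma.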

How the data were processed

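Each array file held spot intensity values on a linear scale, which, per the file headers, the authors had made by extraction with background subtraction and without scaling between arrays; the submitters' processing notes name Agilent Feature Extraction, version 9.5.1. The deposited series table held log2 values of the same arrays, and how it was made is not given in the sources used here; its differences between arrays correlated with those of the scanner values at 0.9998665 to 0.9999913. Those correlations settle its scale and direction; each row was centred so that MB1 and MB2 sum to 0, for a reason that stays unknown. Normal cerebella 1 to 3 had column medians of 0.00234, 0.0817 and 0.0889. From MB1 to MB12 the medians were 0.0506, -0.0506, 0.106, 0.0683, -0.0795, 0.0526, 0.0704, 0.13, 0.127, 0.0912, 0.152 and 0.0996. It served as an alternative.

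Flagged spots were left out, spots of a probe were averaged, and 76 of 41174 probes with no unflagged spot on an array were dropped. Processed signals were divided by the 75th percentile of the array and taken to log2. Probes were named through their RefSeq accession, the brightest probe stood for a gene, and genes were tested where at least 3 arrays read them well above background, with limma 3.58.1 in R 4.3.3 (lmFit and eBayes, 5 groups, 10 residual degrees of freedom, Benjamini-Hochberg adjustment over all 21667). R-type against S-type is the mean of 2 groups minus the mean of 2. Means, intervals and correlations were computed with Python 3.11.15 (100000 permutations). The fit was tested on simulated data. The number of arrays limits the precision. The limma p-values set a difference between groups against the spread of arrays within groups, pooled over the 5 groups. Those of the correlations come from permuting the tumours.

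The members, the other pathway genes and the marker lists were chosen with earlier results of these data known. All 10 members are named; of each other list, up to 3 genes with the smallest adjusted p between tumours and normal cerebella and up to 2 called between the types are named, and for each member up to 3 most similar genes. One gene that this rule names is not reported here. Tagln, Myh11 and Lfng were named after their values were seen. Alternatives were the scaling, the background correction, the filter, the rule for probes, the deposited table, the slide as a block, the samples in the fit and each array left out.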

Additional observations from a re-analysis of the deposited data

Results flagged for a closer look

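Hes5 in the S-type tumour MB6, at 2.69, stood far from the other 5 S-type tumours, which lay between -0.65 and 0.54. Its gap to the nearest of them was 0.642 of the whole range, above Dixon's critical value for 6 samples. The 10 genes were examined in both tumour types, 20 sets in all, and chance alone flags about 5% of such sets. The mouse of MB6 differed in sex from all the others, so sex cannot be told apart from this tumour.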

How the results depend on the processing

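Over 2420 recomputed differences of the 10 genes, 2363 stayed on their side of the threshold, of which 31, called in neither setting, changed sign; 27 lost a call, 30 gained one and 0 called differences changed sign. Leaving the arrays unscaled shifted the median of all genes between the types from 0.02 to -0.20, since R-type arrays were dimmer (75th percentile 1183.9 to 1366.6, against 1237.4 to 1611.1 in S-type). Of the called genes it left 577 higher and 5804 lower in R-type, against 2360 and 2183, and at 0.2 Gy 158 and 2515 against 430 and 603; against normal it left 6895 higher and 8580 lower (scaled 8854 and 7208) for R-type at 0.2 Gy and 6823 and 8696 (scaled 8917 and 7237) at 1.5 Gy. Without scaling 2 members were called between the types, Dll3 and Hey1, beside 6381 of all 21667 genes. Leaving out an array gave 3 to 4 members, beside 3040 to 5280 of all genes. With only the groups compared in the fit, 9 members were called in R-type at 0.2 Gy against normal, beside 16581 of all 21667 genes. With that setting 1 member was called in R-type against S-type at 0.2 Gy, beside 456 of all genes. Leaving out an array gave 0 to 1 members in the latter comparison. At 0.2 Gy the count of all genes called between the types, 1033, was 541 with no filter, 2673 unscaled, 456 with only those groups and 454 with slide as a fixed term. Leaving out an array gave down to 295 (without MB9) and at most 1404. For 0.2 Gy against 0 Gy in S-type, 1 gene was called; it was 3 with the deposited table, with slide as a random block or with a filter on all arrays of a group, 2 with quantile normalization, 0 with no filter, no scaling, probes apart, slide fixed or only those groups, and 0 to 17 without an array (17 without MB1). For 1.5 Gy against 0.2 Gy in R-type 15 genes were called; it was 23 probes with probes apart, 0 with only those groups, and 9 to 159 without an array (159 without MB8). No member was called in either dose comparison under any of these settings. Groups share no replicate numbers, so no fit paired arrays by number; slide was the block tried.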
